A study of Homo sapiens with 18 samples.

Results

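CKAP4, MSRB3, C3orf80, FIGN and PRDM6 are 5 of the 57500 Ensembl genes counted in THP-1, a line of human monocytic leukaemia cells, and were put forward together as genes changed mainly in cells depleted of the nuclear receptor NR4A3. They were chosen from their differences between cell lines in these same libraries, and each is counted under 1 Ensembl identifier. RNA was sequenced from 3 stable lines made with lentiviral particles, which carried a short hairpin RNA with no target (shNT), one against NR4A2 (shNR4A2) or one against NR4A3 (shNR4A3). Cells of every line either stayed without stimulus (control) or were given LPS, a bacterial cell wall component, at 2.5 μg/ml for 2 h, with 3 libraries in each of the 6 groups and 18 in all. All groups first spent 2 h in fresh buffered medium. Total counts per library ran from 16171161 to 23929138, with a median of 19639071. Each hairpin is represented by 1 line, so that its effect and other differences between the lines cannot be told apart.

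NR4A receptors are transcription factors that cells make rapidly after a stimulus, and in monocytes and macrophages they are known for their induction by inflammatory signals. They bind DNA as monomers at the NBRE, an AGGTCA half-site preceded by AA, and act without a known natural hormone. The 5 genes do not form a known pathway. CKAP4 is a membrane protein of the rough endoplasmic reticulum (ER) that holds ER sheets open and binds microtubules, and at the cell surface it is a receptor for the Wnt antagonist DKK1. MSRB3 reduces oxidised methionine in proteins. FIGN (fidgetin) is an AAA ATPase that severs microtubules. PRDM6 is a PR domain transcriptional repressor known from smooth muscle, where it works with histone modifying enzymes. C3orf80 is an open reading frame predicted to encode a membrane protein.

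On GRCh38, the build of the deposited counts, CKAP4 (ENSG00000136026) lies on the minus strand at chr12:106237877-106304279. MSRB3 (ENSG00000174099) is on the plus strand of the same chromosome at chr12:65278643-65488244, and C3orf80 (ENSG00000180044) on the plus strand at chr3:160225636-160228213. FIGN (ENSG00000182263) is on the minus strand at chr2:163593396-163736012 and PRDM6 (ENSG00000061455) on the plus strand at chr5:123089121-123194266. All are protein coding. Genes of the opposite strand share 220 exonic bases with CKAP4 (TCP11L2, 6.05% of its exonic bases), 88 with MSRB3 (AC025419.1, 1.52%), 269 with C3orf80 (AC079594.2, 10.4%) and 328 with PRDM6 (AC106786.1, 3.51%), and none with FIGN. Whether strand was used in counting is not given in the sources used here, so that reads over these bases may belong to either gene.

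The promoters were searched for the NBRE, since it is the site of the receptors that the hairpins target. The 250 bases before the transcription start were taken from RefSeq (GRCh38.p14) for CKAP4, MSRB3 (with 2 starts), C3orf80 and FIGN. PRDM6 had no entry among the promoter sequences used here and was not searched. The full element AAAGGTCA (TGACCTTT on the other strand) was in none of these windows and is in 1.05% of 35116 RefSeq windows of the same length. The shorter core AAGGTCA, which every full element also holds, was present once, in C3orf80, and is in 3.44% of all windows. The C3orf80 window, chr3:160225172-160225421 on the plus strand, is shown because it holds this match, with the core in capitals 34 bases before the start. The FIGN window, chr2:163736009-163736258 on the minus strand, is shown for comparison as that of the member with the largest difference, and holds no match.
C3orf80: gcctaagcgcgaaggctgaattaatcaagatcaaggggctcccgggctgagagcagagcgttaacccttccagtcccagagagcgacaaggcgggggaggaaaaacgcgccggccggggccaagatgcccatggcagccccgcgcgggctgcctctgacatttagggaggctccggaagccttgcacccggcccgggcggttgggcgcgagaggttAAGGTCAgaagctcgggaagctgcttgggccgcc
FIGN: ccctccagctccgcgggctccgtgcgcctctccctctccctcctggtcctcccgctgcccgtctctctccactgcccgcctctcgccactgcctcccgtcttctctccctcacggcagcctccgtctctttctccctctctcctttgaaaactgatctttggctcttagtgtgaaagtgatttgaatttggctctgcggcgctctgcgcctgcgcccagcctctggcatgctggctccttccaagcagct
The deposited gene model of C3orf80 begins downstream of the RefSeq start, and 128 of the 250 bases of its window lie inside IL12A-AS1, a transcript of the opposite strand that is described below with the neighbouring genes. The RefSeq start of CKAP4, at base 106248020, lies well inside its deposited limits, which reach 106304279 on their upstream side. The window searched for CKAP4 is therefore not at the outer end of the deposited gene model, from which distances to its neighbours are counted. A match to these letters describes the sequence, and binding was not measured.

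The hairpin against NR4A3 was checked by its target. Levels are given as TPM, the count per base of the gene's exons after each library was brought to one common sum, so that genes can be compared with each other. NR4A3 had 0.556, 0.693 and 0.512 TPM in shNT control libraries and 0.158, 0.107 and 0.0315 TPM in shNR4A3 control libraries, which in the latter rest on 5, 3 and 1 counts. With LPS it had 30.9, 32.3 and 31.9 TPM in shNT cells and 17, 18.2 and 16.7 TPM in shNR4A3 cells. NR4A3 was thus lower in shNR4A3 cells in every library of both states, while the LPS treated shNR4A3 cells held far more of it than unstimulated shNT cells. In shNR4A2 cells it had 0.936 ± 0.408 TPM without LPS and 34.0 ± 1.86 TPM after LPS (SD, n = 3 for these and the next means). Its relative NR4A2 had 3.69 ± 0.743 TPM in shNT and 2.93 ± 0.401 TPM in shNR4A3 control cells, and 62.7 ± 11.7 and 47.0 ± 12.1 TPM with LPS, while in shNR4A2 cells it had 1.95 ± 0.402 TPM without and 21.2 ± 6.78 TPM with LPS. NR4A1 had 7.53 ± 1.41 TPM in shNT and 5.83 ± 2.27 TPM in shNR4A3 control cells, and 18.1 ± 4.13 and 18.2 ± 1.64 TPM with LPS.

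Cell identity was checked with 8 monocytic markers, all of which were detected in every group. Their summed level in control cells was 1050 ± 65.6 TPM in shNT, 1650 ± 133 TPM in shNR4A2 and 1990 ± 225 TPM in shNR4A3 cells (SD, n = 3 each), and with LPS it was 1140 ± 110, 1720 ± 149 and 2100 ± 216 TPM. The most abundant of the list was the transcription factor SPI1, with 571 TPM in shNT control cells, except in shNR4A3 control cells, where lysozyme (LYZ) led with 883 TPM. LYZ had 192 TPM in shNT control cells and 615 TPM in shNR4A2 control cells. CSF1R, the receptor for the macrophage growth factor M-CSF, had 85.0, 145 and 166 TPM in the same order, and CD14 had 22.6, 50.2 and 39.9 TPM. CD68 was low, between 2.68 and 4.83 TPM on average. The lists for T cells, epithelial cells and fibroblasts summed to under 1 TPM on average in every group. PTPRC had 108, 95.3 and 94.5 TPM and CD33 had 38.8, 41.9 and 36.6 TPM in shNT, shNR4A2 and shNR4A3 control cells. Not every monocytic marker thus followed the summed level. The markers that differed between the lines did so along with the members, and their part in the members' differences was not tested. In bulk RNA, fewer cells that express a gene and less RNA of it per cell cannot be told apart.

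**Figure D1:**
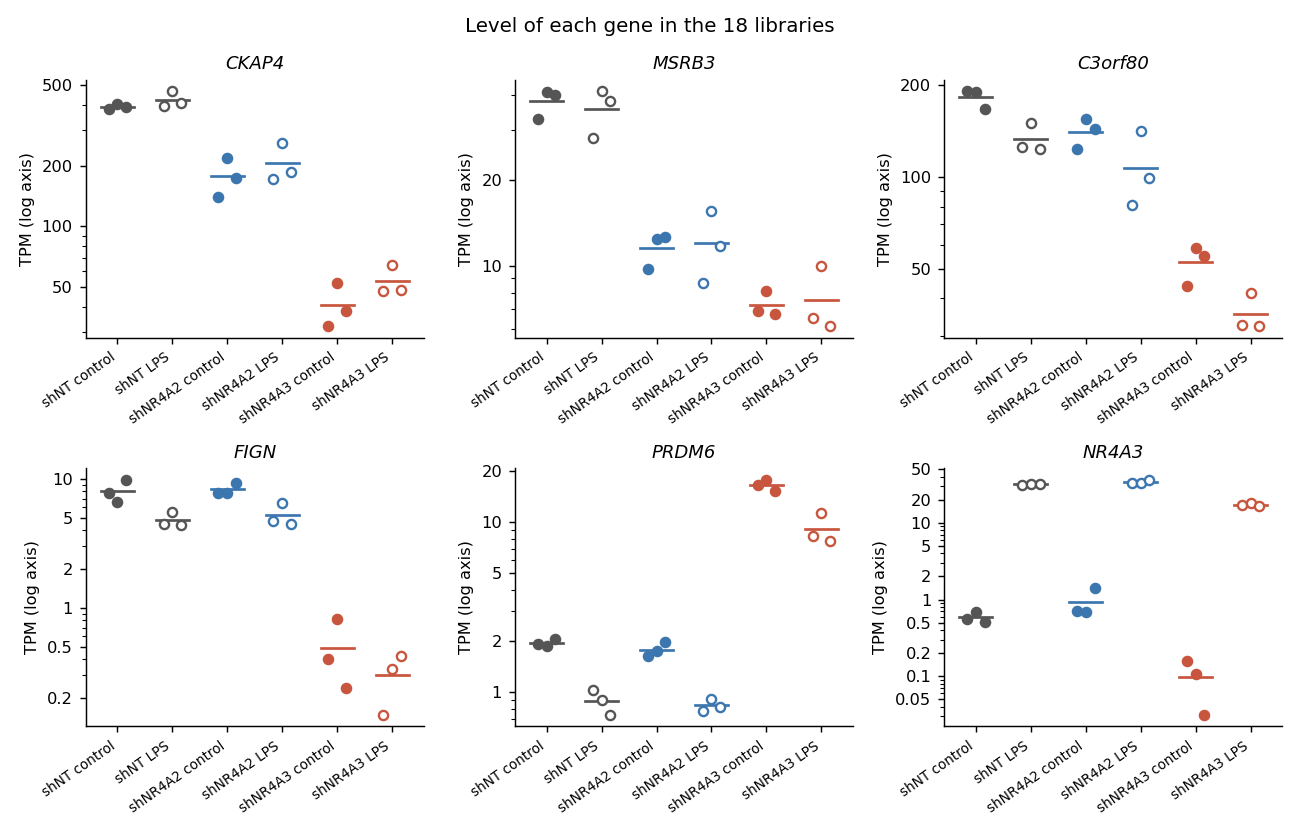
Level of the 5 genes and of NR4A3 in TPM on a log axis, with 1 point per library (filled, control; open, LPS) and a line at the mean of the 3 libraries of each group. FIGN and PRDM6 stood apart in shNR4A3 cells alone, CKAP4, MSRB3 and C3orf80 fell in steps from shNT over shNR4A2 to shNR4A3 on average, and NR4A3 followed LPS in all 3 lines.

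The levels and differences between lines that follow were what the choice of the 5 genes rests on, and are described without a test. Log2 fold changes come from edgeR with TMM normalization, each with its standard error (SE). By the size of the log2 fold change in shNR4A3 against shNT control cells, FIGN ranked 2, CKAP4 7, PRDM6 8, MSRB3 26 and C3orf80 71 among 15322 genes tested. With LPS the ranks were 3, 8, 7, 35 and 76 among 15578 genes. The libraries of shNR4A3 and shNT did not overlap in any member, as in 24.3% of all genes without and 27.9% with LPS. For shNR4A2 against shNT the groups lay apart in 25.7% and 27.2% of all genes, and for shNR4A3 against shNR4A2 in 19.0% and 21.1%.

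FIGN was close to absent in shNR4A3 cells. Unstimulated shNT cells had 7.70, 6.60 and 9.76 TPM, shNR4A2 cells had 7.77, 7.78 and 9.35 TPM and shNR4A3 cells had 0.401, 0.819 and 0.240 TPM. With LPS the same lines had 4.50, 5.51 and 4.40 TPM, then 4.72, 6.48 and 4.47 TPM, then 0.149, 0.336 and 0.421 TPM. The shNT and shNR4A2 libraries overlapped in both states, and every shNR4A3 library lay far below them. The shNR4A3 values rest on between 8 and 36 counts per library, and those of shNT on between 257 and 510. The log2 fold change against shNT was -4.02 (SE 0.268) without and -3.91 (SE 0.256) with LPS in shNR4A3 cells, where the mean TPM was 6.07% and 6.28% of that in shNT cells. In shNR4A2 cells the log2 fold change was 0.06 (SE 0.139) without and 0.17 (SE 0.142) with LPS.

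PRDM6 was the member with a higher level in shNR4A3 cells. In control cells it had 1.92, 1.87 and 2.05 TPM in shNT, 1.63, 1.75 and 1.97 TPM in shNR4A2 and 16.6, 17.7 and 15.3 TPM in shNR4A3 libraries. With LPS the values were 1.03, 0.906 and 0.740 TPM, then 0.778, 0.911 and 0.823 TPM, then 8.26, 11.3 and 7.77 TPM. The shNT and shNR4A2 libraries again overlapped within each state, and the lowest shNR4A3 library was above every library of the other lines. The mean was 8.49 times that of shNT cells without LPS and 10.2 times with LPS. The log2 fold changes against shNT were 3.13 (SE 0.119) and 3.41 (SE 0.174) in shNR4A3 cells, and -0.12 (SE 0.167) and -0.03 (SE 0.218) in shNR4A2 cells.

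CKAP4 had 3 separate levels, and its mean was the highest of the 5 genes in every group but shNR4A3 control cells, where C3orf80 was above it. Its libraries held 381, 404 and 392 TPM in shNT, 140, 219 and 174 TPM in shNR4A2 and 32.2, 52.6 and 38.3 TPM in shNR4A3 control cells. With LPS they held 393, 466 and 408 TPM, then 172, 259 and 186 TPM, then 48.1, 64.7 and 48.3 TPM. The 3 lines did not overlap in either state. The mean in shNR4A3 cells was 10.5% of that in shNT cells without LPS and 12.7% with LPS, and in shNR4A2 cells it was 45.2% and 48.7%. The log2 fold changes against shNT were -3.22 (SE 0.135) and -2.92 (SE 0.109) in shNR4A3 cells and -1.14 (SE 0.146) and -0.99 (SE 0.120) in shNR4A2 cells.

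MSRB3 was lower in both knockdown lines. In control cells it had 32.8, 40.9 and 39.7 TPM in shNT, 9.70, 12.4 and 12.6 TPM in shNR4A2 and 6.92, 8.16 and 6.77 TPM in shNR4A3 libraries. With LPS it had 28.1, 41.0 and 37.8 TPM, then 8.69, 15.6 and 11.7 TPM, then 6.54, 9.96 and 6.13 TPM. The libraries of both knockdown lines were all below those of shNT, while the knockdown lines lay apart without LPS and overlapped with LPS. The log2 fold changes against shNT were -2.33 (SE 0.123) and -2.20 (SE 0.179) in shNR4A3 cells and -1.71 (SE 0.140) and -1.52 (SE 0.185) in shNR4A2 cells. The description of a change mainly in shNR4A3 cells therefore went against the data for MSRB3, whose log2 fold change between the knockdown lines was -0.62 (SE 0.150) without and -0.67 (SE 0.212) with LPS.

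C3orf80 had 191, 190 and 167 TPM in shNT, 124, 155 and 144 TPM in shNR4A2 and 44, 58.7 and 55.1 TPM in shNR4A3 control libraries. With LPS it had 126, 151 and 124 TPM, then 80.8, 142 and 99.3 TPM, then 32.8, 41.6 and 32.5 TPM. The shNR4A3 libraries lay below all others of their state, and shNR4A2 lay below shNT without LPS but overlapped it with LPS. The log2 fold changes against shNT were -1.76 (SE 0.113) and -1.85 (SE 0.102) in shNR4A3 cells, and -0.38 (SE 0.119) and -0.27 (SE 0.151) in shNR4A2 cells. The mean in shNR4A3 cells was 28.8% of that in shNT cells without LPS and 26.7% with LPS.

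Across the 6 groups the order of the means differed between genes. CKAP4 ran from 423 ± 38.6 TPM in shNT cells with LPS to 41.0 ± 10.5 TPM in shNR4A3 control cells, and the control and LPS groups of each line overlapped. MSRB3 ran from 37.8 ± 4.39 TPM in shNT control cells to 7.29 ± 0.765 TPM in shNR4A3 control cells, and only shNT cells with LPS stood apart from the next group down, the 4 knockdown groups overlapping in turn. C3orf80 ran from 183 ± 13.4 TPM in shNT control cells to 35.6 ± 5.14 TPM in shNR4A3 cells with LPS, with shNR4A2 control, shNT LPS and shNR4A2 LPS overlapping in between. FIGN was highest in shNR4A2 control cells with 8.30 ± 0.907 TPM, which overlapped shNT control cells, and lowest in shNR4A3 cells with LPS with 0.302 ± 0.139 TPM, which overlapped shNR4A3 control cells. PRDM6 ran from 16.5 ± 1.18 TPM in shNR4A3 control cells to 0.837 ± 0.0678 TPM in shNR4A2 cells with LPS, which overlapped shNT cells with LPS (SD, n = 3 for each group).

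**Figure D2:**
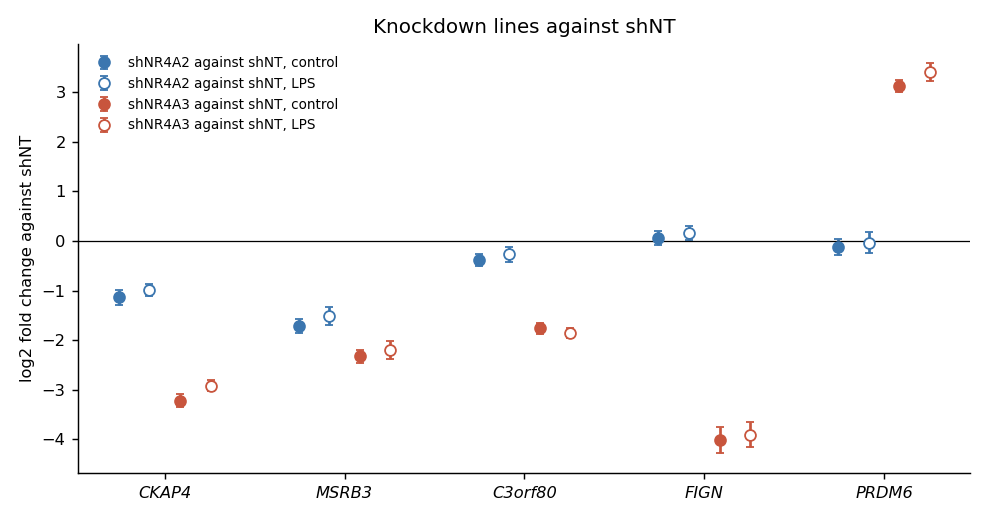
Log2 fold change of each gene against shNT by edgeR, with bars of 1 SE, for shNR4A2 (blue) and shNR4A3 (red) in control (filled) and LPS treated cells (open), fitted on 3 libraries against 3. For FIGN and PRDM6 the shNR4A2 values lie between -0.12 and 0.17, whereas MSRB3 is below -1.5 in both lines.

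The levels of the members can be set beside that of NR4A3 RNA. LPS treated shNR4A3 cells had 17.3 ± 0.807 TPM of NR4A3 and unstimulated shNT cells had 0.587 ± 0.0940 TPM (SD, n = 3 each). CKAP4 was at 53.7 TPM in the former and 393 TPM in the latter, and PRDM6 at 9.12 and 1.95 TPM, in groups that differ in both line and treatment. Over all 18 libraries, Pearson's r of log2 CPM (counts scaled by the size of the library) with NR4A3 was 0.38 for CKAP4, 0.24 for MSRB3, 0.07 for C3orf80, 0.13 for FIGN and -0.46 for PRDM6. These points share the lines, the treatment and the libraries, and a relation to the NR4A3 level was not tested. Between the members the values were larger, from 0.66 (FIGN and MSRB3) to 0.95 (FIGN and C3orf80) among the 4 lower genes and from -0.91 to -0.68 between PRDM6 and the others. Within groups, after the group means were removed, r was 0.83 for CKAP4 and C3orf80, 0.72 for CKAP4 and MSRB3 and 0.72 for MSRB3 and C3orf80, whereas pairs with FIGN or PRDM6 had between 0.11 and 0.36.

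Because the genes were not chosen on LPS, its effect could be tested within each line. LPS lowered PRDM6 in all 3 lines and raised CKAP4 in shNT and shNR4A3 cells, and it lowered FIGN in shNT cells. MSRB3 and C3orf80 passed the limit in none of the lines in the fits of all 6 libraries without a block. C3orf80 was called in some fits with a library left out, which are given below. By edgeR's quasi-likelihood test with Benjamini-Hochberg adjustment and a limit of 0.05, the calls were 3 of 5 in shNT, 1 of 5 in shNR4A2 and 2 of 5 in shNR4A3 cells. Of all genes tested, 24.9% were called in shNT, 19.3% in shNR4A2 and 28.1% in shNR4A3 cells. In shNR4A2 cells the share of the members called was close to that of all genes. With the replicate number as a block, 3 members were called in shNR4A2 and 3 in shNR4A3 cells, where the share of all genes called was 30.1% and 39.4%.

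PRDM6 had a log2 fold change with LPS of -0.91 (SE 0.193, adjusted p = 0.00321) in shNT, -0.82 (SE 0.214, adjusted p = 0.0168) in shNR4A2 and -0.64 (SE 0.125, adjusted p = 0.00272) in shNR4A3 cells by edgeR. Every LPS library lay below every control library of its line, and the mean TPM with LPS was 45.7%, 46.9% and 55.2% of that in control cells. The groups were apart in 48.5%, 46.0% and 51.6% of all genes tested in the 3 lines, and 7.83% of 14929 genes were called lower in all 3. The call in shNR4A2 cells was lost without shNR4A2 LPS replicate 1 (adjusted p = 0.0588 by edgeR) or shNR4A2 control replicate 3 (adjusted p = 0.0686). The transcript thus fell with LPS from a level that was several times higher in shNR4A3 cells, and the LPS treated shNR4A3 cells still exceeded unstimulated shNT cells.

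CKAP4 had a log2 fold change with LPS of 0.32 (SE 0.082, adjusted p = 0.0104 by edgeR) in shNT cells, 0.47 (SE 0.168, adjusted p = 0.0708) in shNR4A2 cells and 0.62 (SE 0.150, adjusted p = 0.00969) in shNR4A3 cells. In TPM the control and LPS libraries overlapped in each line. TPM and TMM set a different zero here, since the median gene moved by -0.23 in shNT, -0.28 in shNR4A2 and -0.24 in shNR4A3 cells on the log2 scale of mean TPM, and by -0.01, -0.02 and -0.01 after TMM. The log2 ratio of mean TPM was 0.11, 0.21 and 0.39 for CKAP4. The call in shNT cells was lost when all 18 libraries shared 1 fit (adjusted p = 0.165 by edgeR). The call in shNR4A2 cells was made with no filter on low counts (adjusted p = 0.0142 by edgeR), with all 18 libraries in 1 fit (0.0306), under the replicate block (0.00235), without shNR4A2 control replicate 2 (0.0233) and by DESeq2 (0.0444).

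FIGN had a log2 fold change with LPS of -0.52 (SE 0.134, adjusted p = 0.0114 by edgeR) in shNT cells. It had -0.41 (SE 0.153, adjusted p = 0.083) in shNR4A2 cells and -0.43 (SE 0.473, adjusted p = 0.547) in shNR4A3 cells, and the replicate block gave a call in shNR4A2 cells (adjusted p = 0.0396 by edgeR), as did leaving out shNR4A2 LPS replicate 2 (0.0374). The LPS libraries lay wholly below the control libraries in shNT and in shNR4A2 cells, and overlapped them in shNR4A3 cells. The value in shNR4A3 cells rests on 68 counts without and 48 counts with LPS over 3 libraries each, and its 95% interval from -1.35 to 0.50 holds the values of the other lines. The call in shNT cells was lost in the fit of all 18 libraries (adjusted p = 0.0805 by edgeR) and without shNT control replicate 3 (adjusted p = 0.0575).

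C3orf80 had a log2 fold change with LPS of -0.24 (SE 0.0986, adjusted p = 0.094 by edgeR) in shNT, -0.14 (SE 0.161, adjusted p = 0.594) in shNR4A2 and -0.34 (SE 0.118, adjusted p = 0.0546) in shNR4A3 cells. The control and LPS libraries lay apart in shNT and shNR4A3 cells and overlapped in shNR4A2 cells. With the replicate block it was called in shNR4A3 cells (adjusted p = 0.0146 by edgeR), as it was without shNR4A3 LPS replicate 2 (0.0249) or control replicate 1 (0.0264). In shNT cells it was called without control replicate 3 (adjusted p = 0.0281 by edgeR). MSRB3 had 0.13 (SE 0.131, adjusted p = 0.519), 0.31 (SE 0.182, adjusted p = 0.270) and 0.27 (SE 0.169, adjusted p = 0.271) in the same order by edgeR. Its sign in shNT cells depended on the scale, with a log2 ratio of mean TPM of -0.09, and its libraries overlapped in every line.

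**Figure D3:**
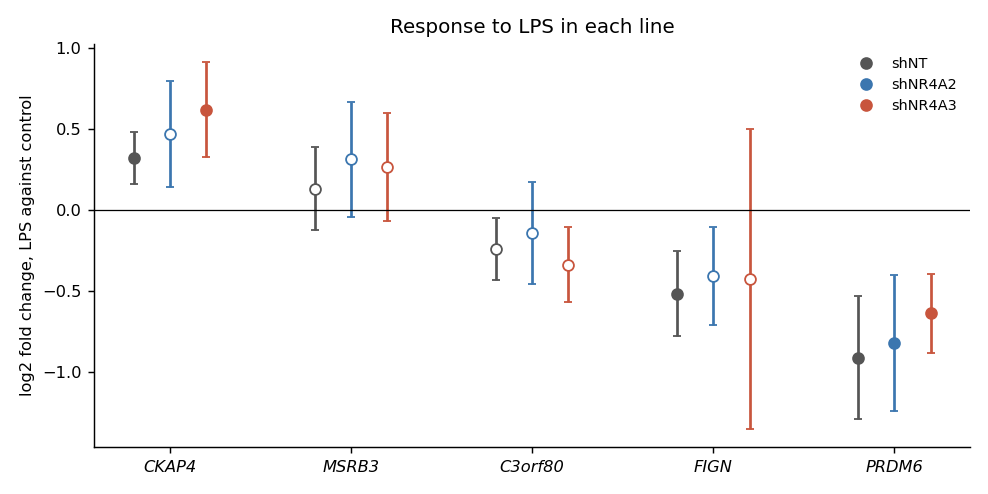
Log2 fold change of each gene with LPS against control in shNT (grey), shNR4A2 (blue) and shNR4A3 cells (red) by edgeR, with 95% intervals, each from 3 libraries against 3. Filled points passed an adjusted p of 0.05, and PRDM6 is the gene with filled points below 0 in all 3 lines.

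Whether LPS acted differently in shNR4A3 cells was tested as an interaction of line and treatment over 12 libraries. None of the 5 genes was called against shNT or against shNR4A2 by edgeR or DESeq2, and none had an unadjusted p below 0.05. No gene of 16428 tested was called against shNT by edgeR either (0.0%), where 824 had an unadjusted p below 0.05 and DESeq2 called 10. Against shNR4A2 the call was made for 0 of 16447 genes (0.0%), where 396 had an unadjusted p below 0.05 and DESeq2 called 1. With no filter on low counts, edgeR called 138 genes against shNT and 29 against shNR4A2. Against shNT it called 22 with the replicate block and 44 without shNR4A3 LPS replicate 2. None of the members was called in these fits. The LPS response of shNR4A3 minus that of shNT cells had a 95% interval, on the log2 scale, of -0.06 to 0.64 for CKAP4, -0.31 to 0.57 for MSRB3, -0.41 to 0.21 for C3orf80, -0.82 to 1.02 for FIGN and -0.13 to 0.66 for PRDM6. Each interval holds 0. The interaction sets the difference between lines with LPS against the one without, and the choice of the 5 genes rests on these differences. For the members it is therefore no independent test, and no conclusion on a like response is drawn from it.

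The genes around the 5 members were not used to choose them. Within 500 kb of a member lie 85 genes, of which 21 passed the filter on low counts in shNR4A3 against shNT control cells and 22 in the LPS comparison. In each state 3 of them were called higher and 3 lower by edgeR, and they were the same 6 genes. In all genes tested, 7.23% were called without LPS (3.91% higher and 3.32% lower) and 6.45% with LPS (3.99% higher and 2.46% lower). In shNR4A2 cells none of 21 tested neighbours was called without LPS, where 6.45% of all genes were, and none of 23 with LPS, where 6.96% were. At an unadjusted p below 0.05 there were 7 and 5 of them by edgeR, and DESeq2 called 0 and 1 (IL12A-AS1). With the replicate number as a block, 10 neighbours without and 8 with LPS were called in shNR4A3 cells, and 5 and 4 in shNR4A2 cells, while the share of all genes called rose to 14.8%, 21.8%, 23.6% and 28.1%. In shNR4A3 cells the block added TCP11L2, SNX2, SMC4 and TRIM59 without LPS and CEP120 and TRIM59 with LPS to the 6 genes. In shNR4A2 cells the block called NUAK1, PPIC, IL12A-AS1, RN7SL689P and TRIM59 without LPS, and PPIC, IL12A-AS1, POLR3B and PCNPP3 with LPS. Among the comparisons with shNT and those of LPS, PCNPP3 passed the filter in none without the shNR4A2 LPS libraries, where it was highest. The comparisons of both knockdown lines share the shNT libraries. In the direct test between the knockdown lines, 4 of the 6 genes were called without LPS and 3 with LPS. The 6 genes were selected on the same shNR4A3 libraries, so that the shares of all genes called there, 3.08% and 2.33%, are no background for these counts.

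On chromosome 12, the nearest tested gene on each side of CKAP4 was lower along with it. NUAK1, an AMPK related kinase 97844 bases below CKAP4, had 4.54 to 4.87 TPM in shNT and 1.25 to 2.26 TPM in shNR4A3 control libraries. Its log2 fold change was -1.29 (SE 0.199, adjusted p = 0.00151 by edgeR) without and -1.42 (SE 0.229, adjusted p = 0.00667) with LPS. In shNR4A2 cells NUAK1 had 0.37 (SE 0.151, adjusted p = 0.188) and 0.23 (SE 0.217, adjusted p = 0.580). The direct test of shNR4A3 against shNR4A2 gave -1.65 in both states (SE 0.215 and 0.273, adjusted p = 0.000973 and 0.0218 by edgeR). POLR3B, a subunit of RNA polymerase III that begins 53379 bases above CKAP4, had -0.67 (SE 0.107, adjusted p = 0.00186 by edgeR) without and -0.68 (SE 0.118, adjusted p = 0.00997) with LPS. Its difference between the knockdown lines was not called (-0.39, SE 0.139, adjusted p = 0.187 by edgeR without LPS, and -0.37, SE 0.137, adjusted p = 0.208 with LPS). The call of POLR3B with LPS was lost without shNT LPS replicate 2 (adjusted p = 0.0513 by edgeR). TCP11L2, which shares exonic bases with CKAP4, had -1.09 (SE 0.352, adjusted p = 0.0863 by edgeR) in control cells, where the replicate block called it.

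Around PRDM6, 3 of 9 tested genes were higher with it in shNR4A3 cells and none was called lower. The antisense gene AC106786.1, which overlaps the start of PRDM6, had 4.49 to 6.34 TPM in shNT and 12.5 to 16.6 TPM in shNR4A3 control libraries, with a log2 fold change of 1.48 (SE 0.232, adjusted p = 0.00162 by edgeR). With LPS it had 1.52 (SE 0.290, adjusted p = 0.0146), a call that was lost without shNR4A3 LPS replicate 1 (highest adjusted p = 0.0587 by edgeR) or shNT LPS replicates 1 or 3. Its reads and those of PRDM6 cannot be told apart over the 328 bases they share. SNX24, a sorting nexin 59767 bases below PRDM6, had 6.57 to 8.52 TPM in shNT and 12.3 to 14.1 TPM in shNR4A3 control libraries. Its log2 fold change was 0.85 in both states (SE 0.142, adjusted p = 0.00244 by edgeR, and SE 0.125, adjusted p = 0.00424). PPIC, a cyclophilin that lies 52380 bases below PRDM6, had 0.59 (SE 0.092, adjusted p = 0.00166 by edgeR) without and 0.53 (SE 0.0851, adjusted p = 0.00683) with LPS. CEP120, the nearest tested gene on the other side, had 0.11 (SE 0.127, adjusted p = 0.686 by edgeR) without and 0.62 (SE 0.183, adjusted p = 0.0762) with LPS, and it was called higher with LPS by DESeq2 and with the replicate block.

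Against shNR4A2 cells, AC106786.1 had a log2 fold change in shNR4A3 cells of 1.62 (adjusted p = 0.00334 by edgeR) without and 1.91 (adjusted p = 0.0396) with LPS, and SNX24 had 0.70 (adjusted p = 0.0305) and 0.56 (adjusted p = 0.0605). PPIC was not called there, with 0.34 (adjusted p = 0.0947 by edgeR) and 0.19 (adjusted p = 0.341). All shNR4A2 libraries held more PPIC than all shNT libraries in both states, and its log2 fold change was 0.25 (SE 0.0989, adjusted p = 0.172 by edgeR) without and 0.33 (SE 0.108, adjusted p = 0.105) with LPS.

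IL12A-AS1, a gene of the minus strand whose own start lies 337 bases from the deposited start of C3orf80, head to head with it, was the neighbour with the largest difference. It had 7.06 to 7.76 TPM in shNT, 4.03 to 6.02 TPM in shNR4A2 and 1.35 to 2.11 TPM in shNR4A3 control libraries, and the lines did not overlap. With LPS the ranges were 6.30 to 7.09 TPM, 3.29 to 4.97 TPM and 1.63 to 1.95 TPM. The log2 fold change in shNR4A3 cells was -2.05 (SE 0.211, adjusted p = 6.3e-05 by edgeR) without and -1.81 (SE 0.180, adjusted p = 0.000621) with LPS. In shNR4A2 cells it was -0.52 (SE 0.174, adjusted p = 0.103) and -0.68 (SE 0.177, adjusted p = 0.0512). DESeq2 called it in shNR4A2 cells with LPS, and the replicate block called it there in both states. The direct test between the knockdown lines gave -1.53 (adjusted p = 0.00439 by edgeR) and -1.13 (adjusted p = 0.0385). None of the 5 other tested genes around C3orf80 was called by edgeR without the block, among them IFT80, the next on its other side, with 0.04 (SE 0.207, adjusted p = 0.95 by edgeR) in control cells. Around MSRB3 the nearest tested gene, LEMD3, had -0.14 (SE 0.0887, adjusted p = 0.419 by edgeR) in control cells, and none was called. None of the 4 genes around FIGN passed the filter.

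**Figure D4:**
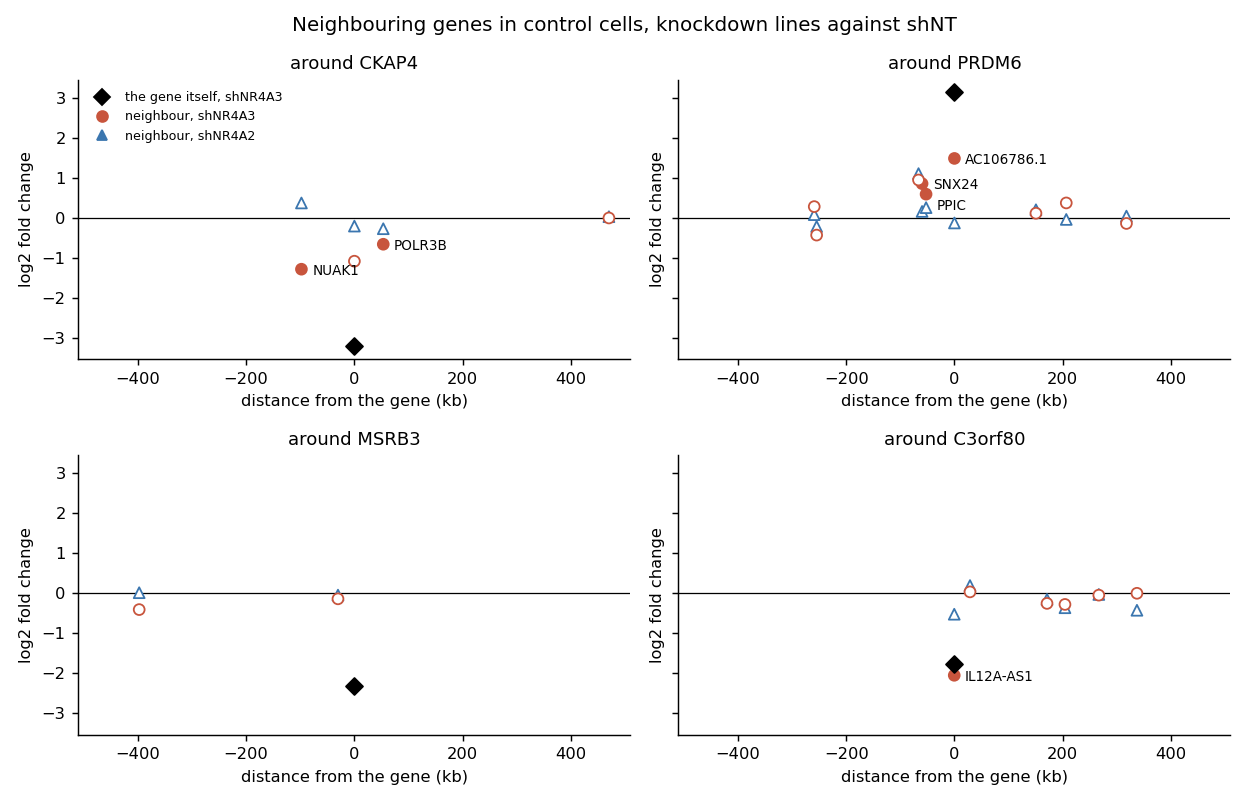
Log2 fold change against shNT in control cells, by edgeR from 3 libraries against 3, of the tested genes within 500 kb of 4 members, plotted by their distance in kb from the member (0 for overlapping genes; FIGN had no tested neighbour). Circles are shNR4A3 and triangles shNR4A2, filled where the adjusted p was under 0.05, and diamonds give the member itself in shNR4A3 cells, with every called neighbour on the same side of 0 as its member.

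The protein families and partners of the members were described with 7 lists of 75 genes in all. In shNR4A3 against shNT cells 1 of 60 tested genes was called higher and 2 lower without LPS, and 1 of 59 was higher and 2 lower with LPS, where 7.23% and 6.45% of all genes were called. The median log2 fold change over the listed genes was -0.00 in both states, as it was over all genes tested (-0.00 and -0.01). With the replicate block 10 listed genes were called without and 13 with LPS, where 14.8% and 21.8% of all genes were. Among the genes it added were FIGNL1, HDAC3, REEP4, REEP5, ATL3 and ARL6IP1 without LPS, and KATNAL2, PRDM1, MSRA, MICAL2, REEP5, ATL1, ATL3, ARL6IP1 and DKK2 with LPS. In shNR4A2 cells 4 listed genes were called higher and 1 lower in each state, of 62 tested without and 59 with LPS. The higher genes were MICAL1, TXNRD1 and ATL3 in both states, with DES without and MYL9 with LPS, and the lower gene was PRDM8. The shares of all genes called were 6.45% and 6.96%. Among the comparisons with shNT and those of LPS, DES passed the filter on low counts in none that left out the shNR4A2 control libraries, where it was highest, and DESeq2 did not call it. With LPS, 4 of 60 tested listed genes were called higher and 9 lower in shNT, 3 and 6 of 61 in shNR4A2, and 4 and 9 of 58 in shNR4A3 cells, where 24.9%, 19.3% and 28.1% of all genes were called.

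Of 9 tested genes for microtubule severing enzymes and related ATPases, none was called in shNR4A3 cells by edgeR without the block or by DESeq2, and 1 had an unadjusted p below 0.05 by edgeR in each state. The most abundant were VPS4B (87.4 TPM over all libraries) and KATNA1 (82.0 TPM), the katanin subunit that cuts microtubules. LPS lowered FIGNL1, a relative of FIGN, in all 3 lines, with a log2 fold change of -1.43 in shNT (adjusted p = 2.3e-05 by edgeR), -1.43 in shNR4A2 (adjusted p = 0.000374) and -1.48 in cells with shNR4A3 (adjusted p = 2.13e-05). The severing enzyme SPAST fell as well, by -0.66 (adjusted p = 0.000479 by edgeR), -0.66 (adjusted p = 0.0114) and -0.85 (adjusted p = 0.00128).

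Of the other PRDM genes, 10 of 15 passed the filter in control cells, and PRDM8 was called, in the direction opposite to PRDM6. PRDM8 had a log2 fold change of -0.71 (SE 0.127, adjusted p = 0.00399 by edgeR) in shNR4A3 and -1.0 (SE 0.147, adjusted p = 0.00233) in shNR4A2 control cells, with -0.50 (adjusted p = 0.0427) and -0.81 (adjusted p = 0.0232) with LPS. LPS raised PRDM8 in all 3 lines, by a log2 fold change of 0.91 to 1.12. PRDM4 fell with LPS, with -0.30 to -0.54. PRDM13 was also called lower in all 3 lines, but it passed the filter on low counts only through the control groups, and its means lay between 0.995 and 1.24 TPM without and between 0.174 and 0.442 TPM with LPS. PRDM1, which drives terminal differentiation of lymphocytes, rose with LPS by 1.45 in shNT (adjusted p = 4.59e-06 by edgeR), 0.87 in shNR4A2 (adjusted p = 0.00547) and 1.75 in cells with shNR4A3 (adjusted p = 2.3e-05). None of 6 chromatin proteins that work with PRDM6 was called in shNR4A3 cells by edgeR without the block, which called HDAC3 in control cells, and among them were HDAC1 (241 TPM) and CBX5 (70.7 TPM). Nor was any of 5 tested smooth muscle contractile genes, among them MYL9 (127 TPM) and SMTN (8.59 TPM). In each of these lists 1 gene had an unadjusted p below 0.05 by edgeR without LPS and 0 with LPS, and DESeq2 called 0 in either state.

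MICAL1, an enzyme that oxidises methionines of actin, was called higher among 10 genes of methionine sulfoxide repair and oxidation. It had a log2 fold change of 0.68 (adjusted p = 0.00333 by edgeR) in shNR4A3 and 0.64 (adjusted p = 0.0129) in shNR4A2 control cells, and 0.79 (adjusted p = 0.000617) and 0.52 (adjusted p = 0.00948) with LPS. TXNRD1, which recharges the thioredoxin that MSRB3 relatives depend on, was called higher in shNR4A2 cells, with 0.56 without LPS (adjusted p = 0.0145 by edgeR) and 0.74 with LPS (adjusted p = 0.00881), and had 0.06 (adjusted p = 0.76) and 0.11 (adjusted p = 0.562) in shNR4A3 cells. TXN itself was the most abundant gene of the list with 441 TPM and was not called in either line. LPS lowered MSRB1, another reductase of the same kind as MSRB3, in each line, by -0.58 (adjusted p = 0.00254 by edgeR), -0.45 (adjusted p = 0.0215) and -0.60 (adjusted p = 0.00128).

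Of 18 genes that shape the ER, LNPK, which sits at junctions of ER tubules, was called lower in shNR4A3 cells. It had -0.58 (SE 0.130, adjusted p = 0.0158 by edgeR) without and -0.54 (SE 0.112, adjusted p = 0.0217) with LPS, and 0.15 (adjusted p = 0.615) and 0.28 (adjusted p = 0.169) in shNR4A2 cells. The replicate block also called LNPK in shNR4A2 cells with LPS. The most abundant genes of the list, ARL6IP1 (199 TPM) and RTN4 (125 TPM), were not called by edgeR. DESeq2 called ARL6IP1 in shNR4A3 control cells, and the replicate block called it in shNR4A3 cells in both states, where edgeR gave 0.28 (SE 0.0823, adjusted p = 0.0603) without and 0.21 (SE 0.0774, adjusted p = 0.140) with LPS. LPS lowered REEP4 in all 3 lines, with -0.35 (adjusted p = 0.0108 by edgeR) in shNT, -0.44 (adjusted p = 0.0352) in shNR4A2 and -0.51 (adjusted p = 0.00478) in shNR4A3 cells. ATL3 was called higher in shNR4A2 cells, with 0.52 (adjusted p = 0.0391 by edgeR) and 0.73 (adjusted p = 0.00682). In shNR4A3 cells it had 0.43 (SE 0.123, adjusted p = 0.054 by edgeR) without and 0.37 (SE 0.119, adjusted p = 0.101) with LPS. DESeq2 called it in shNR4A3 control cells, and the replicate block called it in both states. REEP4 was also called in shNR4A3 control cells by DESeq2 and with the replicate block. REEP5 had -0.38 (adjusted p = 0.117 by edgeR) without and -0.49 (adjusted p = 0.0654) with LPS in shNR4A3 cells. DESeq2 called REEP5 there with LPS, and the replicate block called it in both states. Among the ligands of CKAP4 and their other receptors, DKK1 had at most 0.0263 TPM on average in any group, and LRP5 (38.9 TPM) and DKK2 (7.0 TPM) were the most abundant. None of 4 tested genes of this list was called in either knockdown line by edgeR without the block, where 1 had an unadjusted p below 0.05 in each state in shNR4A3 cells and 0 in shNR4A2 cells, while DESeq2 called 1 in shNR4A3 cells with LPS, DKK2, as did the block. LPS raised DKK2 in all 3 lines, by a log2 fold change of 0.64 (adjusted p = 0.0224 by edgeR), 0.93 (adjusted p = 0.0303) and 1.07 (adjusted p = 0.0156).

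For each member the 3 genes with the most similar pattern were taken as those with the highest Pearson's r of log2 CPM over the 18 libraries, among 16935 genes that passed the filter. These values are descriptions, since the points share libraries and lines. For CKAP4 they were PCDH7 (r = 0.982), ANXA4 (0.974) and FAR2 (0.962). PCDH7, a protocadherin, had 29, 15.9 and 5.16 TPM in shNT, shNR4A2 and shNR4A3 control cells, the same order as CKAP4. For MSRB3 they were CEACAM6 (0.970), NEBL (0.961) and IGSF10 (0.959), and CEACAM6, a surface adhesion protein, had 40.5, 17.2 and 8.66 TPM. For C3orf80 they were the receptor tyrosine kinase EPHB1 (0.980), BEX1 (0.967) and GPA33 (0.951). EPHB1 (0.948), BEX1 (0.946) and C3orf80 (0.946) were also the nearest to FIGN, and BEX1 had 26.2, 15.6 and 3.55 TPM. For PRDM6 they were ERMAP (0.935), LINC00461 (0.922) and TNFSF13 (0.920). LINC00461, a noncoding RNA, had 0.133, 0.129 and 1.78 TPM in the 3 control groups, and TNFSF13, the cytokine APRIL, had 6.63, 6.79 and 10.3 TPM.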

How the data were processed

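The authors deposited raw whole-number read counts per Ensembl gene for each of 18 libraries, made from polyadenylated RNA read from both ends. The submitters' processing notes name Trimmomatic 0.36, STAR 2.5.2b, featureCounts of Subread 1.5.2 and GRCh38. The strand setting is not given in the sources used here. TPM was computed from the counts and the deposited exonic lengths, and symbols came from GENCODE.

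Groups were compared in edgeR 4.0.16 (R 4.3.3) with filterByExpr, TMM and the quasi-likelihood test, each on its own 6 libraries (12 for interactions), with Benjamini-Hochberg adjustment over all genes tested. The procedure was tested on simulated data. Whether libraries are separate cultures is not in the labels, and the study describes independent experiments. An exact permutation test of 3 libraries against 3 cannot go below p = 0.1. Alternatives were DESeq2 1.42.0, RLE size factors, no filter, a replicate block, all 18 libraries in 1 fit, other neighbour distances and each library left out. Libraries with the same replicate number deviated together, with a residual r over 0.1 for each number. This held in comparisons other than LPS in shNT and its interaction with shNR4A3, and the numbers were taken to pair libraries there. The main fits leave this pairing out, and the block was run as an alternative. Calls, SEs and adjusted p values given without mention of the block therefore ignore the pairing. Figures used matplotlib 3.10.9.

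The members and lists were chosen with earlier results of these data known. Named were the members, the NR4A genes, the nearest tested and all called neighbours, the called and the 2 most abundant genes of each list, and the 3 genes most like each member. Listed genes named for LPS or shNR4A2 cells, and the direct tests of neighbours between the knockdown lines, were added after their values were seen. One of the marker lists and some listed genes are not reported here.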

Additional observations from a re-analysis of the deposited data

How the results depend on the processing

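FIGN in shNR4A3 cells rests on between 8 and 36 counts per library, and its LPS response there had an SE of 0.473. Of the settings tried, those below moved a count, and the cause was not tested. Members called with LPS in shNT cells numbered 3, and 1 with all 18 libraries in 1 fit. In shNR4A2 cells 1 was called, 2 by DESeq2, 2 with no filter, 2 with all 18 libraries in 1 fit, 3 with the replicate block, and between 0 and 2 with 1 library left out. Neighbours called in shNR4A3 control cells were 6, and 10 with the replicate block. In shNR4A2 control cells there were 0, 5 with the replicate block, 1 with all 18 libraries in 1 fit and 2 within 1000 kb. In shNR4A2 cells with LPS there were 0, 1 by DESeq2, 1 with no filter, 4 with the replicate block, 2 with all 18 libraries in 1 fit, 2 within 1000 kb and between 0 and 3 with 1 library left out, the 3 without shNR4A2 LPS replicate 2. Listed genes called in shNR4A3 control cells were 3, 6 by DESeq2, 5 with all 18 libraries in 1 fit and 10 with the replicate block. With LPS they were 3, 5 by DESeq2, 6 with no filter, 13 with the replicate block and between 1 and 6 with 1 library left out. In shNR4A2 cells they were 5 in each state, 16 without and 13 with LPS under the replicate block, and between 2 and 5 in each state with 1 library left out. Over all genes, the replicate block raised the calls from 1108 to 2267 and from 1005 to 3401 in shNR4A3 cells without and with LPS, and with 1 library left out they lay between 649 and 975 and between 383 and 1693. The interaction against shNT had 138 calls with no filter, 22 with the replicate block and 44 without shNR4A3 LPS replicate 2, and against shNR4A2 it had 29 with no filter. In shNT cells with LPS the block gave C3orf80 a call (adjusted p = 0.0293 by edgeR).

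Signs turned only for log2 fold changes that were not called or, between lines, not tested. In shNR4A2 against shNT cells with 1 library left out, FIGN lay between -0.05 and 0.18 without LPS. PRDM6 lay between -0.13 and 0.08 there with LPS. The LPS response of FIGN in shNR4A3 minus shNR4A2 cells was -0.01, 0.01 with no filter and 0.02 with the replicate block. With 1 library left out it lay between -0.38 and 0.52, that of MSRB3 between -0.25 and 0.12 and that of CKAP4 between -0.05 and 0.33. Against shNT the ranges were -0.28 to 0.64 for FIGN and -0.07 to 0.25 for MSRB3. The LPS change of C3orf80 in shNR4A2 cells lay between -0.31 and 0.01 and that of FIGN in shNR4A3 cells between -0.79 and 0.11.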

Other observations

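Replicate 2 held the highest TPM of CKAP4 in 6 of the 6 groups, and of MSRB3 and C3orf80 in 5 of 6. For PRDM6 and FIGN it did so in 3 of 6. Over 16935 genes, replicate 2 was highest in 6 of 6 groups for 4.45% and in at least 5 for 13.6%, against 1.85% and 5.20% for replicate 1 and 2.36% and 7.57% for replicate 3. The cause was not tested.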
